A study of Homo sapiens with 4 samples.

Results

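The TRiC chaperonin, also called CCT, is built from the products of 8 genes, *TCP1*, *CCT2*, *CCT3*, *CCT4*, *CCT5*, *CCT6A*, *CCT7* and *CCT8*, and their RNA was compared in cells from 2-D and 3-D culture. The genes were taken from this list of names by matching the Ensembl identifiers of the count files to GENCODE symbols. All 8 were found among the 60564 genes listed, and all 8 were among the 22555 genes that had enough counts to be tested. The cells were Elf1, an established naïve human embryonic stem cell (ESC) line. The 2-D cells adhered to plastic coated with Matrigel, a basement membrane extract. The line itself was maintained on mouse embryonic feeder cells and was moved to feeder-free plates before it was enclosed. The 3-D cells were separated into single cells, enclosed in scaffolds of thiol- and acrylate-ended polyethylene glycol (PEG) as these set, and kept there for 21 days. Both conditions used the same expansion medium, with FGF2, LIF and inhibitors of GSK3 and MEK, and each had 2 independent biological replicates of this 1 line. The conditions differ in adhesion substrate, in dimension and in time since dissociation, and the parts of these in a difference cannot be told apart.

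TRiC is a barrel of a pair of stacked rings in the cytosol, and each ring holds 1 copy of each of the 8 subunits at a fixed place. New actin, tubulin and many proteins with WD40 repeats are enclosed in its chamber and fold there as the subunits bind and hydrolyze ATP. TCP1, CCT2, CCT4 and CCT5 sit side by side and bind ATP tightly, whereas CCT3, CCT6A, CCT7 and CCT8 make up the side of the ring that binds it weakly. Human pluripotent cells are known for high levels of the complex, which depends on a balanced supply of the subunits.

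The 2-D libraries held 33833778 and 30114220 counts and the 3-D libraries 21154409 and 18276147. Levels are given as normalized CPM, the counts of a gene scaled to the size of its library and corrected for RNA composition with TMM factors. A subunit had between 6039 and 15561 counts in a library, so counting error alone was between 0.802% and 1.29% of a value. Mitochondrially encoded genes took 5.10% to 5.30% of the counts in 2-D and 8.3% to 8.5% in 3-D libraries. All 5 general pluripotency markers examined were detected, with a summed level of 3334 to 3552 normalized CPM, and *DNMT3B* was called higher in 3-D (log2 fold change 0.17). The 5 naïve markers summed to 53.6 to 57.4 normalized CPM, from *TFCP2L1* at 22.1 to 23.8 down to *KLF17* at 0.464 to 1.07. Of 7 genes on a list of fibroblast markers, 4 (*COL1A1*, *COL3A1*, *POSTN* and *THY1*) were called higher in 3-D grown cells, beside 4.54% of all genes tested. Which cells expressed them was not tested. The paper names collagen among matrix components that pluripotent stem cells make, and *THY1* already had 75.6 and 75.0 normalized CPM in 2-D libraries. *COL1A2*, the most abundant of the 7, was not called. It had 324 and 316 normalized CPM in 2-D and 300 and 324 in 3-D libraries (log2 fold change −0.037). *DCN* and *LUM* stayed under 1 normalized CPM in every library. The summed level of the 7 was 524 to 532 in 2-D and 544 to 592 in 3-D libraries. The naïve, endoderm, mesoderm, neural and trophoblast lists had 0 calls, and the last 4 summed to at most 60.1 normalized CPM each. Bulk RNA does not separate fewer cells of a type from less RNA per cell.

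The summed level of the 8 subunits was nearly the same in both conditions. It was 3121 and 3149 normalized CPM in 2-D and 3133 and 3088 in 3-D libraries, means of 3135 ± 19.9 and 3110 ± 31.4 (SD, n = 2 each). The 3-D values straddled the lower 2-D value, so the groups overlapped. Scaled by library size alone, without the factors that correct for RNA composition, the sums were 3182 and 3228 in 2-D and 3049 and 3035 in 3-D libraries. On that scale the 3-D mean of 3042 ± 10.2 lay below the 2-D mean of 3205 ± 32.3 (SD, n = 2 each) and the groups did not overlap.

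No subunit was called, that is, none had an adjusted p below 0.05 by the quasi-likelihood test of edgeR, with p-values adjusted over all genes tested by the Benjamini-Hochberg method. This test called 7.9% of all genes, 4.54% as higher and 3.36% as lower in 3-D. DESeq2 called 0 subunits as well. It called 795 of the 10229 genes to which it gave an adjusted p (7.77%), a smaller set of genes than the 22555 tested with edgeR. Unadjusted p-values were below 0.05 for 5 of the 8 with edgeR and for 4 of the 8 with DESeq2. With edgeR this held for 21.3% of all genes, most of them less abundant than the subunits. Among genes at least as abundant as the lowest subunit the share was not computed, but it was at least the 39.3% called there. The share over all genes with DESeq2 was not computed. The subunits divided into 3 with log2 fold changes of −0.10 to −0.073 (*TCP1*, *CCT4* and *CCT2*), 3 near 0 (*CCT6A*, *CCT3* and *CCT8*) and 2 near 0.10 (*CCT5* and *CCT7*). Their median log2 fold change was −0.016, against −0.00013 over all genes tested. Their median size of change was 0.082 on the log2 scale, against 0.13 over all genes tested and 0.090 over the 458 genes with a mean level at least that of the lowest subunit. Of those 458 genes, 39.3% were called.

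Several subunits lay close to the threshold, and their calls moved with the settings of the test. Scaled by library size alone, *TCP1*, *CCT4* and *CCT2* were called lower, where 8.3% of all genes were called lower and 10.6% in either direction. Without the filter on low counts 4 subunits were called, *CCT5* and *CCT7* as higher and *TCP1* and *CCT4* as lower, beside 5.89% of genes. *TCP1* alone was called with at least 10 counts required in every library (8.95% of genes), and *CCT5* and *CCT7* once offsets corrected for gene length and GC content (7.58%). Without its legacy mode edgeR called *TCP1*, *CCT5* and *CCT7* (7.77%). With DESeq2 size factors 0 were called (7.71%), and 0 with library sizes that leave out the mitochondrially encoded genes. Without 2-D replicate 1 or 2 there were 0 calls among the subunits (5.22% and 4.27% of genes), whereas without 3-D replicate 1 there were 5 (10.7% of genes) and without 3-D replicate 2 there were 4 (9.74%). The 4 were *TCP1* and *CCT4* as lower and *CCT5* and *CCT7* as higher, and *CCT2* as lower was the fifth.

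**Figure D1:**
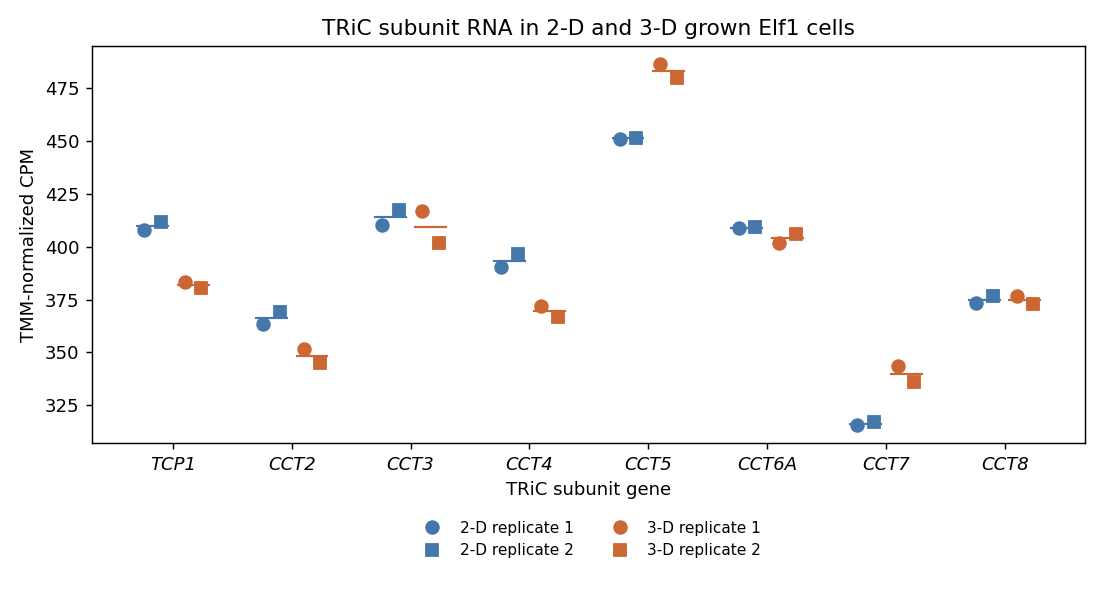
TMM-normalized CPM (vertical axis) of the 8 TRiC subunit genes in each library, 2-D in blue and 3-D in orange, with circles for replicate 1, squares for replicate 2 and a line at each mean. *CCT5* and *CCT7* lie higher in both 3-D libraries, *TCP1*, *CCT2* and *CCT4* lie lower, and the points of *CCT3* and *CCT8* overlap.

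Of the subunits that bind ATP tightly, *TCP1* encodes the first subunit to be described, CCT-alpha. The gene lies on chromosome 6 from 159778498 to 159789703 (hg38, minus strand) and its canonical transcript has 12 exons. Its level was 408 and 412 normalized CPM in the 2-D and 383 and 380 in the 3-D libraries. Both 3-D libraries were below both 2-D libraries, with a log2 fold change of −0.10 (standard error 0.029, 95% interval −0.17 to −0.038, edgeR adjusted p = 0.0535). *CCT4*, which encodes the delta subunit (chromosome 2, from 61868085 to 61888671, 14 exons), had 390 and 396 normalized CPM in 2-D and 372 and 367 in 3-D libraries. The 3-D values were again the lower ones, with a log2 fold change of −0.090 (standard error 0.030, 95% interval −0.16 to −0.026, edgeR adjusted p = 0.0904).

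*CCT2*, on chromosome 12 from 69585426 to 69601570 with 16 exons, encodes the beta subunit. It had 364 and 369 normalized CPM in 2-D and 352 and 345 in 3-D libraries, without overlap. The log2 fold change was −0.073 (standard error 0.030, 95% interval −0.14 to −0.0078, edgeR adjusted p = 0.178). *CCT5*, the epsilon subunit (chromosome 5, from 10249929 to 10266389, 11 exons), is altered in an inherited sensory neuropathy, and its protein can form rings by itself. It was the subunit with most counts in every library, with 451 and 451 normalized CPM in 2-D and 486 and 480 in 3-D libraries. Unlike the other tight ATP binders its 3-D values were the higher ones, by 7.04% (log2 scale 0.098, standard error 0.029, 95% interval 0.034 to 0.16, edgeR adjusted p = 0.0628).

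Of the subunits that bind ATP weakly, *CCT7* (chromosome 2, from 73233420 to 73253021, 12 exons) encodes the eta subunit. It had the fewest counts of the 8 in every library, with 316 and 317 normalized CPM in 2-D and 344 and 336 in 3-D libraries. Both 3-D libraries lay above both 2-D libraries, with a log2 fold change of 0.10 (standard error 0.030, 95% interval 0.039 to 0.17, edgeR adjusted p = 0.0540). The theta subunit gene *CCT8*, on chromosome 21 from 29055805 to 29073797 with 15 exons, was level. It had 373 and 376 normalized CPM in 2-D and 377 and 373 in 3-D libraries, and the interval of its log2 fold change ran from −0.064 to 0.063.

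*CCT3* (gamma subunit, chromosome 1, from 156308968 to 156367873, 14 exons) had 410 and 417 normalized CPM in 2-D and 417 and 402 in 3-D libraries. These overlapped, and the interval of the log2 fold change was −0.084 to 0.053. *CCT6A* (zeta subunit, chromosome 7, from 56051685 to 56063989, 14 exons) had 409 and 409 normalized CPM in 2-D and 402 and 406 in 3-D libraries. Its 3-D values were the lower ones, with a log2 fold change of −0.017 and an interval of −0.081 to 0.046. Over the 8 subunits the interval bounds reached from −10.9% to 12.4%, so larger changes of a subunit lay outside all 8 intervals of this fit. Each interval covers a single subunit and depends on the TMM scaling. Scaled by library size alone, the estimate of *TCP1* itself was a log2 fold change of −0.17. In 6 of the 8 the groups did not overlap (75.0%), against 50.5% of all genes tested and 83.8% of those at least as abundant as the lowest subunit.

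**Figure D2:**
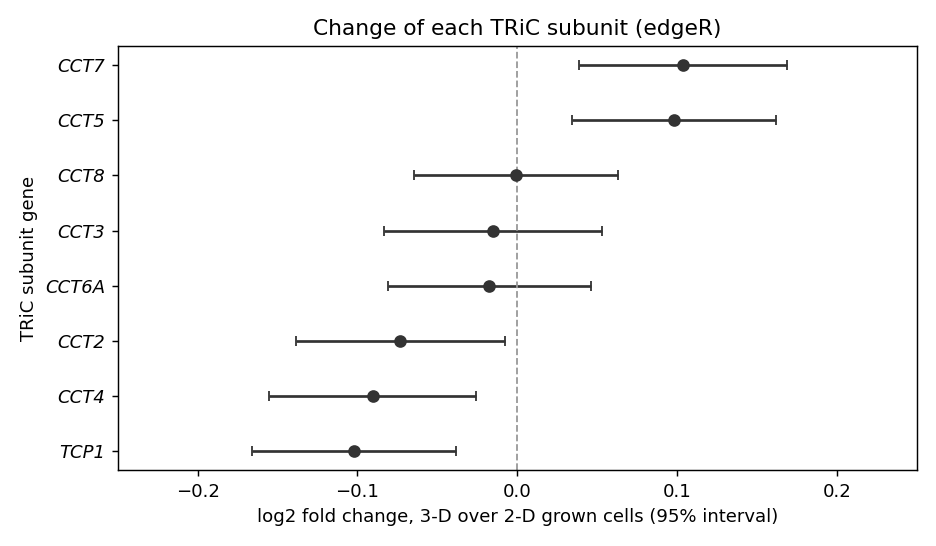
Log2 fold change, 3-D against 2-D (horizontal axis), for each subunit, as points with 95% intervals from the edgeR fit, ordered by size. The intervals of *CCT7* and *CCT5* lie above 0, those of *CCT2*, *CCT4* and *TCP1* lie below 0, and none carries an adjusted p under the threshold.

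The proportions among the subunits can be read within a library, where scaling between libraries plays no part. Effects of gene length and GC content on single genes can remain, and a larger share of 1 subunit lowers those of others. With offsets for length and GC content the log2 fold changes were 0.10 for *CCT5*, 0.11 for *CCT7*, −0.083 for *TCP1* and −0.047 for *CCT4*. Without them they were 0.098, 0.10, −0.10 and −0.090. *CCT5* held 14.5% and 14.3% of all TRiC counts in the 2-D and 15.5% and 15.5% in the 3-D libraries, and *CCT7* held 10.1% and 10.1% in 2-D and 11.0% and 10.9% in 3-D libraries. The share of *TCP1* was 13.1% and 13.1% in 2-D and 12.2% and 12.3% in 3-D libraries. The share of *CCT4* was 12.5% and 12.6% in 2-D and 11.9% and 11.9% in 3-D libraries. The differences of the means, 3-D minus 2-D, were 1.13, 0.836, −0.799 and −0.671 percentage points in this order, and each was larger than the distance between replicates. For *CCT8* the difference was 0.0884 points, for *CCT3* −0.0407 and for *CCT6A* −0.0550, the last 2 with overlapping libraries.

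As a ratio within a library, *CCT7* had 0.773 and 0.771 counts for each *TCP1* count in 2-D and 0.897 and 0.884 in 3-D libraries. For *CCT5* over *CCT4* the ratios were 1.16 and 1.14 in 2-D and 1.31 and 1.31 in 3-D libraries. These pairs were chosen after their values were seen, so they are a description. An exact two-sided permutation test of 2 libraries against 2 cannot give a p below 0.333.

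**Figure D3:**
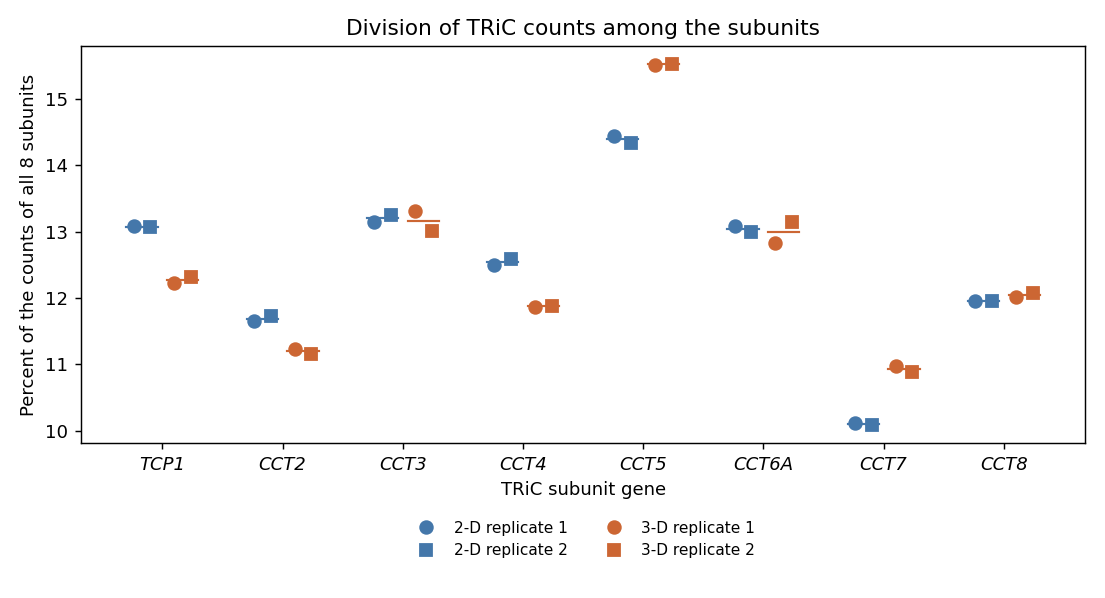
Share of the counts of all 8 subunits (vertical axis, percent) taken by each subunit in each library, with 2-D in blue, 3-D in orange and a line at each mean. *CCT5* averages 14.4% in 2-D and 15.5% in 3-D and *CCT7* 10.1% and 10.9%, while *TCP1*, *CCT4* and *CCT2* differ by −0.799, −0.671 and −0.492 points.

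Levels of different genes can be compared only per length. Per kb of all annotated exons, the mean over the 4 libraries ranged from 81.1 ± 3.33 normalized CPM per kb for *TCP1* to 141 ± 5.26 for *CCT4*, a ratio of 1.74. The order from the top was *CCT4*, *CCT8*, *CCT3*, *CCT6A*, *CCT7*, *CCT2*, *CCT5* and *TCP1*. *CCT3* and *CCT6A* overlapped, as did *CCT2* with *CCT5* and *CCT5* with *TCP1*, and the other neighbors were apart in all 4 libraries. With all annotated exons as length, the order at the bottom differed between conditions. *TCP1* (83.6 and 84.3) was above *CCT5* (at most 80.1) in both 2-D libraries, whereas *CCT5* (86.2 and 85.1) was above *CCT2* (83.2 and 81.5) and *TCP1* (78.5 and 77.9) in both 3-D libraries. Per kb of the longest coding transcript the ratio of highest to lowest was 1.47 and *CCT3* (208 ± 3.68) led, with *CCT5* (142 ± 5.63) at the bottom. The difference in order at the bottom was then absent. *CCT5* (at most 147.7) was below *TCP1* (at least 161.7) and *CCT2* (at least 157.5) in all 4 libraries. *TCP1* then ranked 3 instead of 8 and *CCT4* ranked 6 instead of 1, and *CCT8* was in place 2 by both lengths. By this length the ranges of neighbors within places 3 to 7 (*TCP1*, *CCT2*, *CCT7*, *CCT4* and *CCT6A*) overlapped over the 4 libraries. *TCP1* was still above *CCT2* in all 4 libraries, whereas the order of the other neighbors among these varied between libraries. The spread between subunits thus depended on the transcripts counted as length.

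**Figure D4:**
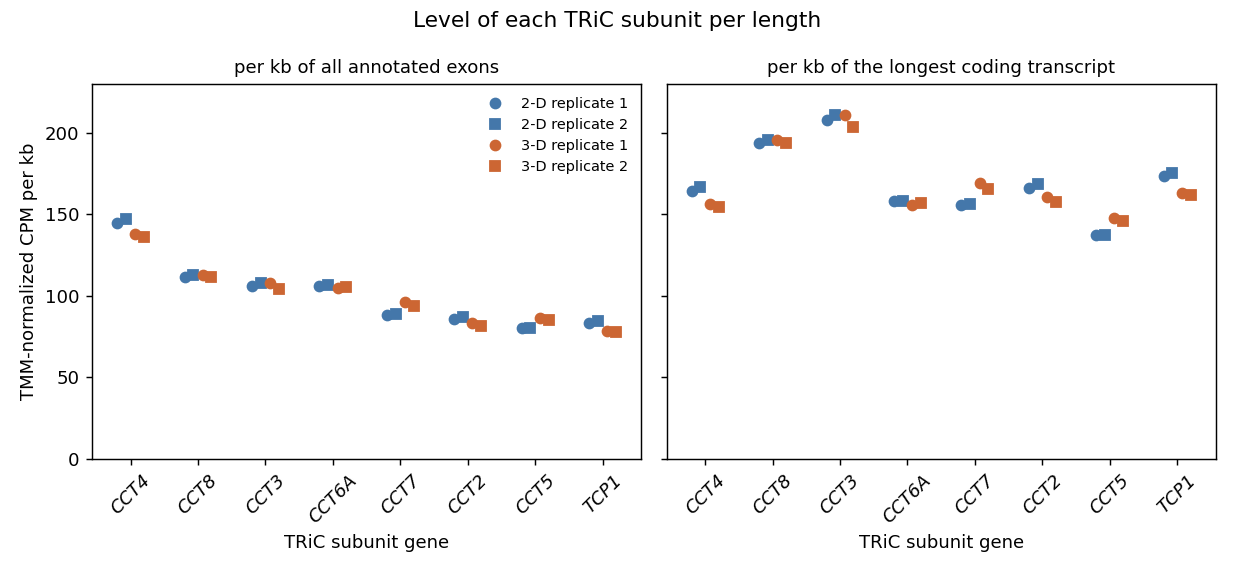
TMM-normalized CPM per kb (vertical axis, from 0) of each subunit in each library, over all annotated exons at the left and over the longest coding transcript at the right, with genes in the same order in both panels. The levels lie within a 1.74-fold range at the left and a 1.47-fold range at the right, and the order differs.

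The promoter sequences of the 3 subunits with the lowest log2 fold changes and of *CCT7*, with the highest, are shown because the genes supply 1 complex from separate chromosomes or distant sites. They are the 250 bases before a RefSeq transcript start (GRCh38.p14), 5′ to 3′ on the strand of the gene. For these genes that start is also the start of the canonical transcript. The annotated gene spans given above begin further upstream, so each window overlaps its gene, and that of *CCT7* lies wholly inside it. *TCP1* is at chr6:159789603-159789852 on the minus strand, *CCT4* at chr2:61888657-61888906 on the minus strand, *CCT2* at chr12:69585209-69585458 on the plus strand and *CCT7* at chr2:73234058-73234307 on the plus strand. Capitals mark the letters CGGAAGT, a core of sites for ETS factors, and CCAAT, the box bound by NF-Y, on either strand. *CCT4* holds neither.
TCP1: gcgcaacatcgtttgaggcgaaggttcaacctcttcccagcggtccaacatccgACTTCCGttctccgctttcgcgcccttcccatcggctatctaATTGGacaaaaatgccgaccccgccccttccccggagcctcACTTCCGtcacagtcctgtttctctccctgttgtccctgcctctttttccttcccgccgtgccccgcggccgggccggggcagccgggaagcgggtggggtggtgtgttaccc
CCT4: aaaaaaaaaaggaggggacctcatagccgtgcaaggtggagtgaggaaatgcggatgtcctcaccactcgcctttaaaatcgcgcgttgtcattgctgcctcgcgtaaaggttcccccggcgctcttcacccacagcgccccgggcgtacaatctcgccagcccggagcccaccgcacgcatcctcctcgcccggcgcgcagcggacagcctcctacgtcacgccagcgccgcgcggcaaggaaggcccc
CCT2: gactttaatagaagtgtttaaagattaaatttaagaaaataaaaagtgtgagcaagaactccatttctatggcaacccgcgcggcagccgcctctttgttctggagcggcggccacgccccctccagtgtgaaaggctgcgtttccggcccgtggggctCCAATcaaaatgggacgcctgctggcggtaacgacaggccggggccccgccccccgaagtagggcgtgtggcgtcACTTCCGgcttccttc
CCT7: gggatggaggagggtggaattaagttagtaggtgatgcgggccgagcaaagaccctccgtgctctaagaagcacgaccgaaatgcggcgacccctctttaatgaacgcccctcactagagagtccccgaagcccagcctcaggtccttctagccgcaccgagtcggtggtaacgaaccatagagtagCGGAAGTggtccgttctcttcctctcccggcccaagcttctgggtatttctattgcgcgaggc
The table held a window for 7 of the 8 subunits, *CCT6A* being absent, and that of *CCT5* was set on a start 257 bases downstream of the canonical one. In the full windows of 300 bases, which add the 50 bases after the start, CGGAAGT was found for *TCP1*, *CCT2* and *CCT7*, 3 of 7, and in 6.83% of all 35116 windows. CCAAT was found for 4 of 7 and in 34.6% of all windows, and GGGCGG, the GC box, for 5 of 7 and in 45% of them. Both strands were searched, and matches of different motifs could share bases. Of the heat shock elements, GAANNTTC was found for *TCP1* only and TTCNNGAA for *CCT4* only, in 6.77% and 7.74% of all windows. The E-box CACGTG was in 0 of the 7 and in 7.26% of all windows. *TCP1* and *CCT7*, at opposite ends of the range of change, both held the ETS core. A match of letters is not evidence of binding.

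Several genes overlap a subunit gene, and the sources used here do not state whether the counting used strand, so reads of antisense partners cannot be told apart. *ACAT2*, a cytosolic thiolase on the opposite strand of *TCP1*, shares 454 exonic bases with it. It had 127 and 124 normalized CPM in 2-D and 116 and 109 in 3-D libraries, lower by the test (a log2 difference of −0.16, standard error 0.034, edgeR adjusted p = 0.0135), though not with DESeq2 or without 2-D replicate 1. The lncRNA ENSG00000271980 shares 1734 exonic bases with *CCT5* from the other strand. It had 93.1 and 91.9 normalized CPM in 2-D and 77.4 and 75.8 in 3-D libraries, lower in 3-D grown cells (log2 fold change −0.27, standard error 0.034, edgeR adjusted p = 4.69e-04), the opposite sign to *CCT5*.

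Antisense to *CCT4*, the lncRNA ENSG00000236498 had 51.7 and 52.0 normalized CPM in 2-D and 41.6 and 37.9 in 3-D libraries and was called lower (log2 fold change −0.38, standard error 0.054, edgeR adjusted p = 0.00105). A second one there, ENSG00000286360, had a log2 fold change of 0.029 and was not called. Antisense to *CCT8*, ENSG00000286018 had a log2 fold change of 0.15 (edgeR adjusted p = 0.0561). It passed the threshold with the offsets for gene length and GC content (0.22), without the filter on low counts (0.15) and without 3-D replicate 2 (0.20), but was at 0.095 without 3-D replicate 1, and not called. ENSG00000231125 in *CCT8* and *TSACC*, which lies within *CCT3*, had at most 93 counts in a library and were not called.

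The subunit genes also host small nucleolar RNAs that guide pseudouridylation, and these were close to the limit of detection. Inside *TCP1*, SNORA20 had 4 to 14 counts a library and SNORA29, which lies wholly in annotated exons of its host, had 0. Inside *CCT6A*, SNORA22B had 10 to 27 counts and was not called, and SNORA15 had 0 to 4. At this depth no difference was detectable in SNORA22B, the only one tested.

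Retrotransposed or duplicated copies of the subunits could draw reads from their parents. Aligned to hg38, the canonical transcripts of 6 subunits matched 13 other places with 72.5% to 95.7% identity, and none of these was near-identical (at least 98% identity over at least 80% of the transcript). The search reported no other place for *CCT2* and *CCT3*, although the annotation lists 1 *CCT3* pseudogene, *CCT3P1*, which had 0 counts in every library. Of 14 annotated pseudogenes, 5 reached 10 counts in a library, and all pseudogenes of a subunit together had at most 3.98% of its counts (*CCT6A*) and 1.76% in the next case (*CCT8*).

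*CCT8P1*, the copy with the highest identity, had 224 and 205 counts in 2-D and 106 and 59 in 3-D libraries. It was called lower (log2 fold change −0.62, standard error 0.17, edgeR adjusted p = 0.0427), but not without 3-D replicate 2 (−0.35), without 2-D replicate 2 (−0.61) or with the offsets for gene length and GC content (−0.56). *CCT6P1* and *CCT6P3* had log2 fold changes of −0.33 and −0.031 and were not called, though *CCT6P1* was with library size only (−0.40), without the filter (−0.33), and without 2-D replicate 1 (−0.44) or 3-D replicate 2 (−0.36). *CCT6B*, the testis counterpart of *CCT6A*, had 26 and 13 counts in 2-D and 10 and 11 in 3-D libraries, against 7291 to 14097 for *CCT6A*.

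Upstream of TRiC, prefoldin holds new actin and tubulin chains and hands them over. Of its 6 subunit genes 5 were tested, and *VBP1* (prefoldin 3) was the only one called, beside 7.9% of all genes tested. It had 137 and 138 normalized CPM in 2-D and 118 and 112 in 3-D libraries, with the log2 fold change at −0.25 (standard error 0.033, edgeR adjusted p = 6.93e-04). The median of the 5 was 0.050. *PFDN6* was listed at 0 in every library, as was *HSPA1B* of the HSP70 list, and *HSPA1A* and *TUBB* had at most 2 and 6 counts. These 4 genes lie in the major histocompatibility region of chromosome 6. Whether their counts reflect expression was not tested, so they are not read as levels.

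Of the 6 cochaperones that bind TRiC, 4 were tested and 0 were called, beside 7.9% of all genes tested. *PDCL*, the phosducin-like cochaperone for G protein beta subunits, had the smallest p (log2 fold change −0.16, edgeR adjusted p = 0.180). Of the 4, *PDCL* and *PDCD5* had an unadjusted p below 0.05 with edgeR, as did 21.3% of all genes tested. Of the 7 tubulin folding cofactors, which take up tubulin released by TRiC, *TBCA* was called higher (log2 fold change 0.17, standard error 0.036, edgeR adjusted p = 0.0142). Over all genes tested 4.54% were called higher, and the list's median was 0.011. The mitochondrial chaperonin pair diverged. *HSPE1*, its lid, had 89.6 and 85.8 normalized CPM in 2-D and 60.6 and 59.6 in 3-D libraries (log2 fold change −0.54, standard error 0.038, edgeR adjusted p = 5.14e-06), whereas *HSPD1*, its barrel, had 1235 and 1244 in 2-D and 1297 and 1293 in 3-D libraries and was not called (0.063, adjusted p = 0.229). The chaperonin-like genes *MKKS*, *BBS10* and *BBS12* were not called.

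Substrates of TRiC were among the called genes. Beside their counts stand the shares over all genes tested, 4.54% called higher and 3.36% lower, and 39.3% called in either direction among genes at least as abundant as the lowest subunit. Of the 6 actin isoforms, *ACTB*, the main cytoplasmic actin, was called higher, with 4294 and 4314 normalized CPM in 2-D and 5273 and 5097 in 3-D libraries (log2 fold change 0.27, standard error 0.029, edgeR adjusted p = 2.02e-04). *ACTA1* was called higher as well (0.23), and the list's median was 0.25, whereas *ACTG1* was at −0.053. Of the 12 tubulin isotypes tested, 5 were called higher (*TUBB4A*, *TUBG1*, *TUBB4B*, *TUBA1A* and *TUBA1B*, from 0.52 to 0.13) and *TUBB2B* lower (−0.32), with a median of 0.15. These 12 leave out *TUBB*, which had too few counts to be tested. Actin and tubulin genes have closely related copies, so reads could be split among them. The same libraries had higher *COL1A1*, *COL3A1*, *POSTN* and *THY1* in 3-D, but not *COL1A2*, as given above. The part of the higher ones in the actin result was not tested.

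Among 12 WD40 clients only *MLST8*, a subunit of both mTOR complexes, was called (0.30, standard error 0.072, edgeR adjusted p = 0.0212), and the median was 0.011. Of 5 other clients the mitotic kinase *PLK1* was called higher (0.25, standard error 0.034, edgeR adjusted p = 7.45e-04). The HSP70 and HSP90 system, which shares clients with TRiC, had 6 of 14 tested genes called higher and 0 lower, with a median of 0.077, beside the 4.54% of all genes and 39.3% of abundant genes given above. They were *CDC37*, *HSPA8*, *ST13*, *AHSA1*, *STIP1* and *HSP90AA1*, with log2 fold changes from 0.22 to 0.13. The heat shock factors were not called, and *HSF1*, with 49.2 and 47.6 normalized CPM in 2-D and 51.7 and 58.6 in 3-D libraries, had an adjusted p of 0.0665 (edgeR). It was called without the filter on low counts (0.18) and without 3-D replicate 1 (0.28) but stood at 0.098 without 3-D replicate 2, and was not called. Scaling by library size alone, which moved the median of all genes to −0.064, ended the calls of *TBCA*, *TUBA1A*, *TUBA1B*, *MLST8*, *HSP90AA1*, *STIP1* and *AHSA1* (0.064 to 0.24). With DESeq2 those of *TUBB2B*, *MLST8* and *AHSA1* were lost at nearly the same log2 fold changes (−0.32, 0.30 and 0.17). Leaving out 2-D replicate 1 ended those of *TBCA*, *TUBA1B*, *MLST8*, *HSP90AA1* and *AHSA1* (0.12 to 0.25), and leaving out 2-D replicate 2 those of *TUBA1A*, *TUBA1B*, *HSP90AA1* and *STIP1* (0.12 to 0.15). *TUBA1B* was also lost with DESeq2 size factors (0.13), with at least 10 counts in every library (0.12) and with the offsets for gene length and GC content (0.11).

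**Figure D5:**
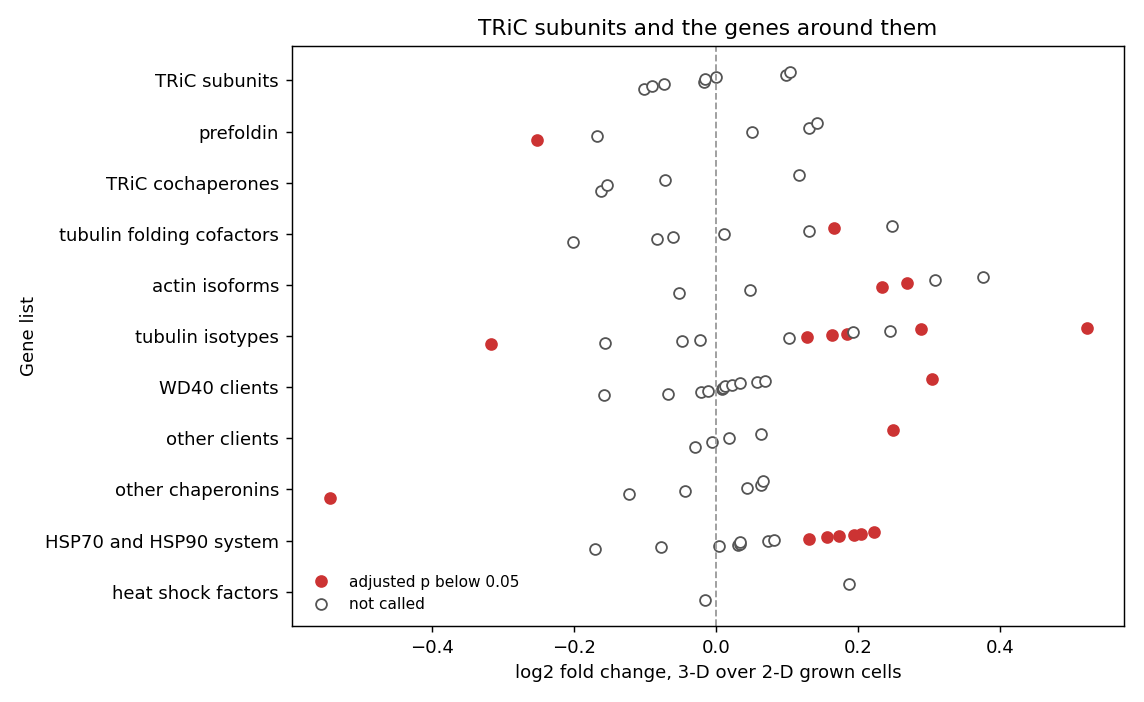
Log2 fold change, 3-D against 2-D (horizontal axis), of the TRiC subunits and of each tested gene of 10 related lists (vertical axis), filled where the edgeR adjusted p was below 0.05. The 8 subunits lie between −0.10 and 0.10 with none filled, while filled points reach −0.54 (*HSPE1*) and 0.52 (*TUBB4A*).

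The genes whose pattern over the 4 libraries lay nearest to the summed TRiC level were *DYNC1H1*, the dynein heavy chain, *SCD*, a fatty acid desaturase, *TOP2A*, a topoisomerase of dividing cells, *RIF1*, which acts in replication timing and DNA repair, and *SKIL*, a repressor in TGF-β signaling. Their Euclidean distances on the centered log2 scale were 0.012 to 0.016 among 450 genes at least as abundant as the lowest subunit. Of these 450 genes, 81 lay within 0.05, so the flat pattern was a common one.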

How the data were processed

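RNA of Elf1 cells from both culture conditions, 2 libraries each, was depleted of ribosomal RNA and sequenced with paired ends. Per the submitters' processing notes and methods, the authors trimmed reads with Trim Galore 0.6.3, mapped them to hg38 with HISAT2 2.1.0 and deposited featureCounts 1.6.4 counts per gene on GENCODE (release 30 in the methods, though some identifier versions in the files may be newer), not normalized. Their table of DESeq2-normalized values, which also holds their fold changes and p-values, was not used here.

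Of 60564 identifiers, 60295 matched GENCODE release 44 without version (names, positions, lengths), and the others held 0.122% of counts. The subunits and related lists were chosen with earlier results of these data known. Counts were fitted with edgeR 4.0.16 (R 4.3.3) with TMM, its low-count filter, the quasi-likelihood test in legacy mode and condition alone. P-values were Benjamini-Hochberg adjusted over the 22555 genes tested, with 0.05 as the threshold. Standard errors are the log2 fold change divided by the root of the F statistic, without sign, and intervals are 95%. The alternatives were DESeq2 1.42.0, other scalings, other filters, offsets fitted by splines (5 degrees of freedom) for gene length and GC content, a replicate block, edgeR without legacy mode, and leaving out each library.

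Genes named are the 8 subunits, called genes of the lists (or the smallest p where none was called), *CCT6B*, overlapping genes and the 3 pseudogenes with most counts (at least 10 counts in a library), and 5 genes of nearest pattern. Other list members are named after their values were seen. Replicates differed by more than sampling noise (chi-square over degrees of freedom 2.45 in 2-D, 4.39 in 3-D). Copies were searched with minimap2 2.31-r1302. The fit was tested on simulated data.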

Additional observations from a re-analysis of the deposited data

How the results depend on the processing

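Genes called numbered 795 with DESeq2 and 974 to 2643 with 1 library left out, against 1782. The count of called subunits, 0 with edgeR, was 3 with library size only, 4 without the filter on low counts, 1 with at least 10 counts in every library, 2 with the offsets for gene length and GC content, 2 with the offsets and the replicate block (9.84% of genes), 3 without legacy mode, and 0 to 5 with 1 library left out. It stayed 0 with DESeq2, with DESeq2 size factors and without the mitochondrially encoded genes in the library sizes. A lone library was taken to vary like the others. Among the fits with 1 library left out, subunits gained calls only where it was a 3-D library.

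With library size only, the log2 fold changes of *TCP1*, *CCT4* and *CCT2* were called at −0.17, −0.15 and −0.14. Without the filter, *TCP1*, *CCT4*, *CCT5* and *CCT7* were called at −0.10, −0.092, 0.096 and 0.10. With at least 10 counts in every library, *TCP1* was called at −0.11. With the offsets, *CCT5* and *CCT7* were called at 0.10 and 0.11 (with the replicate block as well, 0.10 and 0.11), *CCT6A* turned to 0.012 (0.011 with the block) and *CCT8* to 0.032 (0.032). The offsets without the block moved *CCT4* from −0.090 to −0.047, *TCP1* from −0.10 to −0.083 and *CCT2* from −0.073 to −0.059, and none of these was called. Without legacy mode, *TCP1*, *CCT5* and *CCT7* were called at −0.10, 0.098 and 0.10. With 1 library left out, *TCP1* ranged from −0.11 to −0.095, *CCT2* from −0.087 to −0.057, *CCT4* from −0.10 to −0.079, *CCT5* from 0.089 to 0.11, *CCT7* from 0.089 to 0.12, *CCT3* from −0.042 to 0.013 and *CCT8* from −0.0076 to 0.0087. The causes of these differences were not tested.

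Same-numbered libraries did not deviate together (correlation of replicate 1 deviations −0.0079). With the replicate block 2167 genes (9.61%) were called, and 2 subunits, *TCP1* at −0.10 and *CCT7* at 0.10. *HSF1* (0.18) and ENSG00000286018 (0.15) were called with it too, the latter also with block and offsets (0.22).

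Of 33 related genes, none that was called turned in direction under any alternative. *CCT6B* was 0.37 and 0.043 without 2-D or 3-D replicate 1 (range −0.46 to 0.37), *CCT6P3* was 0.034 and 0.033 with the offsets without and with the block, and 0.055 and 0.030 without 2-D replicate 1 or 3-D replicate 2. ENSG00000286360 was −0.035 with library size only and −0.0052 and −0.059 without those 2 libraries, and ENSG00000231125 was −0.33 without 3-D replicate 2 (range −0.33 to 0.49). The snoRNAs had at most 27 counts in a library and *CCT6B* 26, which limits what could be detected.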
